A study of Dicentrarchus labrax with 16 samples.

Results

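Skeletal muscle and testis differ widely in what they transcribe. Muscle fibres spend much of their transcription on a small set of contractile and energy-supplying proteins, while the testis, with its germ cells and supporting cells, is known for the large number of different genes it transcribes. The genes described here lie below the 100 shared genes of highest muscle value and have the strongest tilt toward muscle among those that remain. Most are still high in muscle, with a median percentile of 94.7 among all genes listed for muscle, where 100 is the highest level. They are 200 of the 10538 genes of the European sea bass (Dicentrarchus labrax) that have a value in both testis and muscle, that is 1.90% of them. They were selected on the measured values themselves. A gene was eligible when its muscle value was at least 10 and when it was not among the 100 shared genes of highest muscle value. Of the 3514 eligible genes, those with the 200 lowest ratios of testis value to muscle value were kept, that is 5.69%. Ratio, testis value and muscle value therefore describe the selection, and no test was made of them.

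The tissues came from wild adult fish that were taken at sea by speargun outside the reproductive season, so the testis is that of non-reproductive males. RNA-seq was made from the testis and the muscle of 5 fish, and the study left out 1 muscle sample as an outlier before its comparison. Whether that sample enters the muscle values used here is not given in the sources. Testis and muscle were sampled as whole pieces of tissue, with no treatment and no genetic change in either. Fewer cells of a type and less RNA per cell cannot be told apart in such samples. Reduced representation bisulfite sequencing was also made from testis and muscle of 3 fish each, and is not used here, because positions of the genes on its genome build were not at hand.

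Expression was deposited as 1 value per gene for testis and 1 value per gene for muscle, under the name cpm, which stands for read counts scaled to library size. Values of single fish were not at hand, so the spread between animals is not given and none of the differences below was checked across replicates here. The values of the 16380 genes listed for testis summed to 801212, and those of the 12715 genes listed for muscle to 1111921. The tables do not share a total, so a value is read here as an expression level of its own tissue's table, and only the order of the ratios is comparable between genes. The tables give no number of reads behind a value, so no counting error is given. The identifiers are those of the sea bass annotation used by the study, and 0 of the 200 could be matched to a gene name. Markers of muscle or testis cells could therefore not be looked up, and no function or sequence is given for any gene. The bias to muscle is the rule of selection, and no separate check of it was made here. The authors' own comparison of the libraries, with fold changes and p-values, was not used.

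The muscle-biased genes combined a high level in muscle with a low level in testis. Their median value was 6.92 in testis (quartiles 2.68 and 19.8) and 79.4 in muscle (quartiles 33.6 and 161). The other 3314 eligible genes had a median of 73.5 in testis and 20.4 in muscle. The muscle-biased genes thus lay on opposite sides of the other eligible genes in the tissues, below them in testis and above them in muscle. Their lowest testis value was 0.596 and their highest 147, and their muscle values ran between 10.2 and 525. All 200 had a testis value below the muscle value, against 8.04% of all shared genes and 17.7% of the eligible genes, a count that the selection fixed. The tables are not scaled alike, so the shares of shared and eligible genes depend on that scaling.

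**Figure D1:**
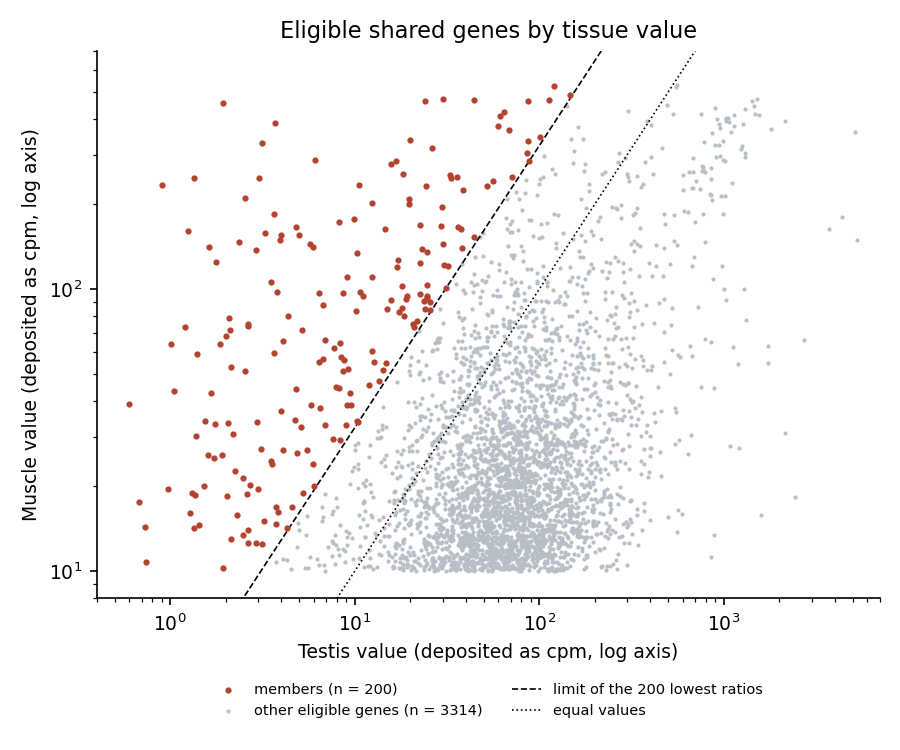
Testis value (horizontal) and muscle value (vertical) of the 3514 eligible genes, both on log axes, with the 200 muscle-biased genes in red and the other 3314 in grey. The dashed line is the ratio that bounds the selection and the dotted line marks equal values. The red points spread over testis values between 0.596 and 147, while the grey points centre on a testis value of 73.5.

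The log2 ratio of testis to muscle had a median of -2.89 among the muscle-biased genes, with quartiles of -4.08 and -2.18. The median muscle value over testis value was 7.40. Over all shared genes the median log2 ratio was 2.74, so the tables place most shared genes higher in testis. Set against that median, the median muscle-biased gene lay 5.63 lower on the log2 scale, or 49.4-fold. Dividing each table by its own sum moved the median log2 ratio of the muscle-biased genes to -2.41, with the order of the genes unchanged. The size of the bias thus depends on how the tables are scaled to each other, and its order does not. Over the same number of shared genes the study gives a smaller median log2 fold change toward testis. The sizes printed here are therefore not those of its comparison.

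The bias formed a long tail. Of the 200 genes, 166 had a log2 ratio below -2, 94 below -3, 56 below -4, 27 below -5, 11 below -6 and 4 below -7. At the limit of the selection the genes followed each other closely. The last 3 genes inside had log2 ratios of -1.69 to 2 decimals, and the first 3 outside had -1.69, -1.68 and -1.68, so the limit cuts through a continuous distribution. The last gene inside had 10.4 in testis and 33.7 in muscle, and the first gene outside had 38.0 in testis and 122 in muscle. The limit lay 3.26 below the median of the eligible genes on the log2 scale. The 200 eligible genes of highest ratio began only 1.93 above that median. The lowest ratio was 9.59 below it and the highest 5.49 above it. The eligible genes had to have a muscle value of at least 10 and a value listed for testis. No other testis minimum was set, and the lowest testis value of a shared gene was 0.545. These bounds shape the distances.

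The gene with the lowest ratio was DLAgn_00126010, with a value of 0.901 in testis and 233 in muscle. It stood at position 16194 of the 16380 genes of testis and at position 279 of the 12715 genes of muscle, counted from the highest. Its log2 ratio was -8.02, the lowest among the eligible genes. The second was DLAgn_00048230, with 1.94 in testis and 456 in muscle, and a log2 ratio of -7.88. It stood at position 14987 in testis and 150 in muscle. Both genes were in the highest expression decile of muscle and in the lowest of testis.

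Genes at the other ends of the selection had a different make-up. The gene with the highest muscle value of all 200 had 121 in testis and 525 in muscle, and ranked 155 by ratio. The gene with the highest testis value had 147 in testis and 490 in muscle and ranked 193. It lay above 94.7% of the testis table, with a log2 ratio of -1.74, close to the limit. The 50 genes of lowest ratio had testis values of at most 24.0. The gene with the lowest testis value, 0.596, had 39.1 in muscle and ranked 11. The gene with the lowest muscle value, 10.2, had 1.92 in testis and ranked 137.

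When the 200 genes were taken in steps of 50 by rising ratio, the testis level changed more steadily than the muscle level. The median testis value was 2.55, 6.58, 9.002 and 21.3 in the consecutive steps. The median muscle value was 139, 64.8, 56.7 and 78.7. By these medians the first 50 genes were the lowest in testis and the highest in muscle, and the other steps differed mainly in their testis level. The rule bounds the muscle value on both sides, and in testis it asks only that a value be listed, which shapes this contrast. Genes with no listed testis value could not enter, so the low end in testis is cut off. Across the 200 genes, the log2 ratio had a Pearson's correlation of 0.60 with the log2 testis value and of -0.22 with the log2 muscle value (Spearman's 0.61 and -0.16). The ratio is made of both values, which by itself pushes the correlation with testis up and that with muscle down. The correlations describe genes that share libraries and were chosen by the ratio, and are given with no test.

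**Figure D2:**
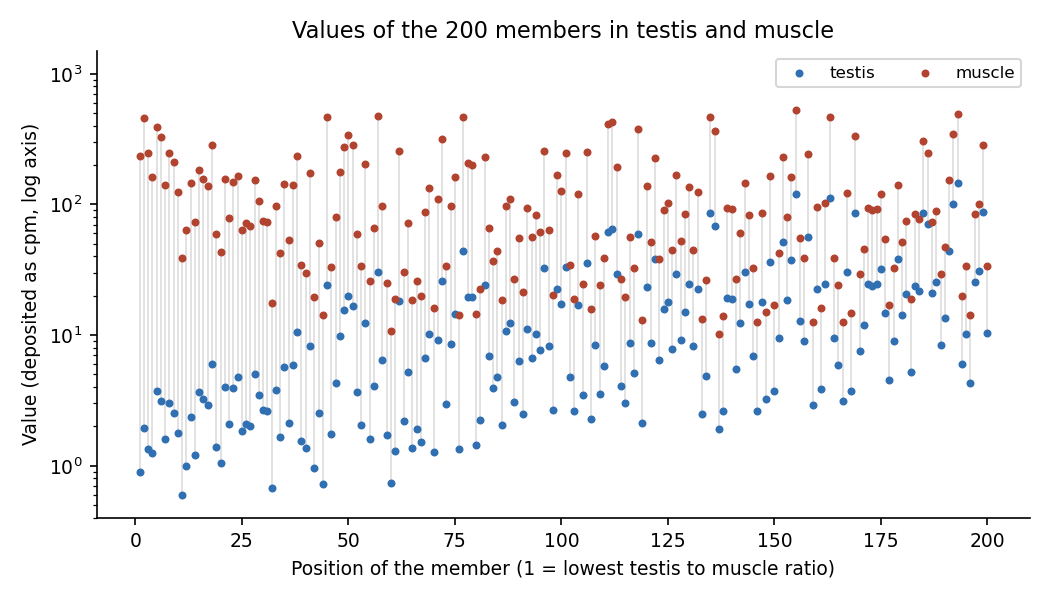
Value in testis (blue) and in muscle (red) of each of the 200 muscle-biased genes on a log axis, ordered from the lowest ratio on the left. Grey lines join the values of a gene. The blue points climb from left to right, with medians of 2.55 in the first 50 genes and 21.3 in the last 50, while the red points show no such steady order.

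Muscle and testis levels also went together within the group. Across the 200 genes, Pearson's correlation between the log2 values of testis and muscle was 0.65 (Spearman's 0.62), against 0.25 (0.23) across the eligible genes. A limit on the ratio makes such a relation by itself, since a gene of high testis level can enter only with a high muscle level. The spread over the 200 genes was 1.79 for the log2 testis values and 1.47 for the log2 muscle values (SD over genes), against 1.56 and 1.23 over the eligible genes.

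Ranks within a tissue do not depend on the scaling of the tables to each other, but they rank the same values that chose the genes and so describe the selection on another scale. The muscle-biased genes had a median percentile of 25.9 in testis and 94.7 in muscle, where 100 is the highest level. The other eligible genes had 83.8 in testis and 81.2 in muscle. For 0 of the 200 genes was the percentile in testis above that in muscle, whereas this held for 1748 of the other eligible genes (52.7%).

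Expression deciles were taken over all genes of a tissue's table. By these deciles 138 of the 200 genes (69.0%) fell in the highest decile of muscle, which begins at a value of 39.6. Of the other eligible genes 782 (23.6%) did so. In testis, 37 were in the lowest decile, 41 in the next and 34 in the one above, so that 112 (56.0%) lay in the lowest 3 deciles, below a value of 8.89. Against these, 36 of the other eligible genes (1.09%) lay there. In all, 55 of the 200 genes (27.5%) were in the highest decile of muscle and in the lowest 3 of testis at once, and 0 of the other eligible genes were. That 0 is fixed by the limit on the ratio, since a gene with such values lies below it. At the opposite end, 15 genes (7.50%) lay in the highest 3 deciles of testis, where 2441 of the other eligible genes (73.7%) lay. The muscle-biased genes were therefore spread over all 10 deciles of testis, although most were low.

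**Figure D3:**
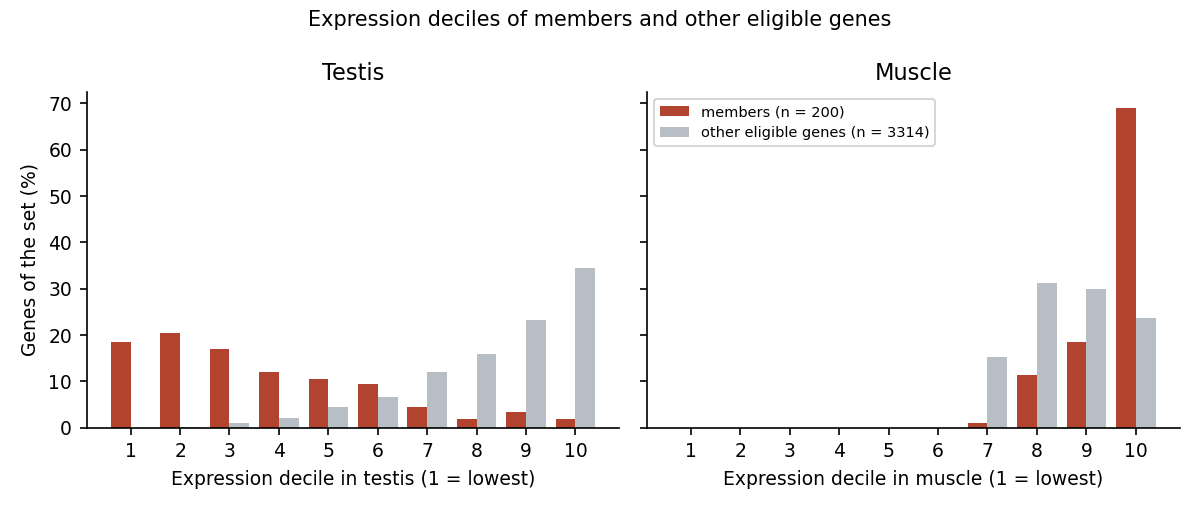
Percent of the 200 muscle-biased genes (red) and of the 3314 other eligible genes (grey) in each expression decile of testis (left panel) and of muscle (right panel), where decile 1 is the lowest. In the highest muscle decile stand 69.0% of the red set and 23.6% of the grey set, and in testis the red bars are highest in the first 3 deciles. Deciles 1 to 6 of muscle are empty because a muscle value of at least 10 was required.

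The low testis values approached the bottom of the testis table. Of the 200 genes, 17 had a testis value at or under 1.42, the 5th percentile of all genes listed for testis, and 0 of the other eligible genes did. In testis 157 of the 200 lay under the median of the table, 22.9, as did 253 of the other eligible genes (7.63%). Where the testis value was below 2, all 30 eligible genes were among the 200. Both counts follow from the selection, since a muscle value of at least 10 with so low a testis value gives a ratio under the limit. Between 2 and 5 they made up 53 of 60 eligible genes, between 5 and 10 they made up 36 of 75, and between 10 and 20 they made up 32 of 182. From a testis value of 50 upward, 15 of 2318 eligible genes entered. Ratios of the genes with the lowest testis values rest on small numbers of unknown error.

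The share of eligible genes that were muscle-biased was larger at higher muscle levels. It was 28 of 1650 genes (1.697%) at a muscle value of 10 to 20, 42 of 1124 (3.74%) at 20 to 50, 52 of 421 (12.4%) at 50 to 100, 38 of 176 (21.6%) at 100 to 200 and 40 of 143 (28.0%) from 200 upward. The median log2 ratio of all eligible genes in these ranges was 2.12, 1.36, 0.26, -0.24 and 0.08. The ratio contains the muscle value, which by itself lowers the ratio of genes high in muscle. Within a range of muscle values a low ratio goes largely with a low testis value. A gap in testis thus follows from the selection, and only its size is described here. At a muscle value of 10 to 20 the median testis value was 2.54 in the muscle-biased genes and 60.7 in the others. From 200 upward it was 31.5 in the muscle-biased genes and 683 in the others.

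As a sum, the muscle-biased genes were a small part of either tissue's table. They held 0.40% of the testis sum and 2.16% of the muscle sum. Among the eligible genes alone they held 0.74% of the testis values and 15.4% of the muscle values, with 5.69% of the genes. The 20 highest of them in testis held 45.9% of the group's testis sum, and the 20 highest in muscle held 33.5% of its muscle sum.

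The upper bound of the selection shaped the list. The highest muscle value of an eligible gene was 528, and the lowest of the 100 genes left out was 530 (529.8 to 1 decimal). These 100 genes held 70.7% of the muscle sum and 3.23% of the testis sum. Their median was 20.2 in testis and 1632 in muscle, and their median log2 ratio was -8.02. Of the 100, 83 had a ratio below the limit of the muscle-biased genes. With none of them left out, 120 of the 200 genes stayed on the list. The 100 genes were taken for a high muscle value and the 200 for a low ratio, so a low ratio is built into both. Below a muscle value of 10, 23 of 6924 shared genes had a ratio under the same limit. A further 808 genes with a muscle value of at least 10 were listed for muscle alone, 776 of them at or under the highest eligible muscle value. These 776 could not enter for want of a testis value.

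The number in an identifier was used to ask whether muscle-biased genes stood next to each other. The identifiers advance in steps of 10, and genes at 1 step were taken as neighbours. A neighbour was counted once for each gene of the set that it stood beside, so the same gene can count more than once. Whether the numbers follow the order of genes along the chromosomes is not given in the sources used here. The bias of a neighbour was not used to choose a gene. The 200 genes had 197 neighbours listed for both tissues, of which 18 were muscle-biased genes themselves (9.14%). Among the neighbours of all shared genes the share was 2.01%, and among those of the other eligible genes 2.29%. At 2 steps it was 8 of 183 (4.37%), against 1.98% for all shared genes. In both counts each pair of muscle-biased genes enters from both of its ends, so few pairs stand behind them. At 3 steps it was 0 of 161 and at 5 steps 0 of 151, against 1.78% and 1.69%, and at 10 steps it was 2 of 157 (1.27%), against 1.76%. The higher share was thus seen at 1 and 2 steps and not at 3, 5 and 10 steps. Whether it exceeds what other sets of genes would give was not tested.

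**Figure D4:**
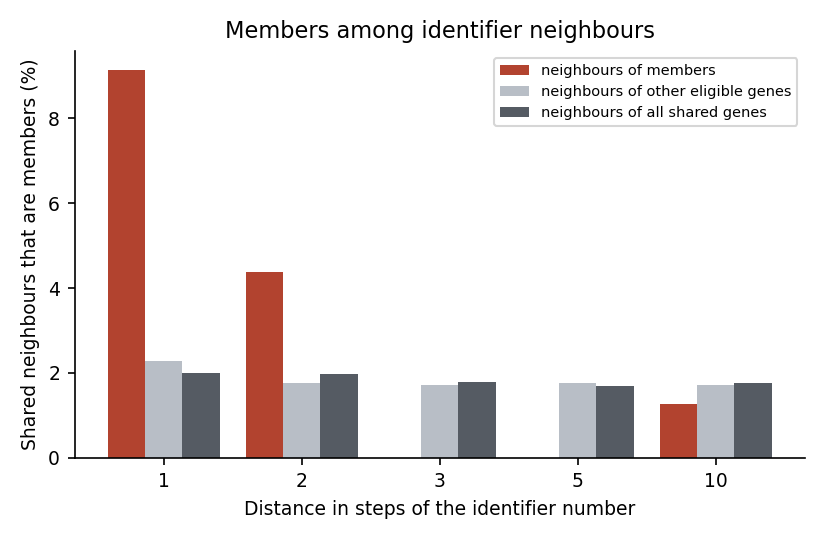
Percent of neighbours listed for both tissues that are muscle-biased genes, by distance in steps of the identifier number, for neighbours of the muscle-biased genes (red), of the other eligible genes (light grey) and of all shared genes (dark grey). At 1 step the red bar is at 9.14% and the dark grey bar at 2.01%, and at 3 and 5 steps the red bar is at 0.

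Most neighbours at 1 step had a higher deposited value in testis, as most shared genes did. Their median log2 ratio was 2.25 (1.89 to 2.47, a 95% order-statistic interval over genes), against 2.62 (2.54 to 2.69) for neighbours of the other eligible genes. This includes the 18 neighbours chosen for their own low ratio. With such neighbours left out, the medians were 2.38 (2.12 to 2.62) and 2.66 (2.59 to 2.75), with intervals that overlap. The order was the other way at 2 steps, where the medians with all neighbours were 2.84 around the muscle-biased genes and 2.76 around the other eligible genes. It was so too at 5 steps, with 2.95 and 2.69. At 3 steps the medians were 2.73 and 2.75, and at 10 steps 2.72 and 2.81. Genes are not independent replicates, so the intervals describe the lists, and no lean of the neighbours as a whole can be read from these medians. Which value of a gene is the higher depends on how the tables are scaled to each other. Counts of lower testis values therefore hold for the values as deposited. At 1 step, a testis value below the muscle value was found in 41 of the 197 neighbours (20.8%), against 8.41% for the other eligible genes. With neighbours that were muscle-biased genes themselves left out, it was 23 of 179 (12.8%), against 6.26%. Counted in this way, the share was 8% against 5.27% at 2 steps and 5.59% against 5.84% at 3 steps. At 5 steps it was 5.30% against 6.71%, and at 10 steps 3.23% against 6.37%. Among the 197 neighbours at 1 step, 6 belonged to the 100 genes left out for their muscle level. The same was true of 27 of 3188 neighbours of the other eligible genes and of 87 of 9822 neighbours of all shared genes, with no test made. Counting all neighbours with a value in either table, 62 had a testis value only (20.4%) and 45 a muscle value only (14.8%). Around the other eligible genes these shares were 24.6% and 12.6%.

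The 18 genes formed 9 pairs of consecutive identifiers. The gap in log2 ratio within a pair had a median of 0.70 and lay between 0.03 and 6.004. In the closest pair the genes had 21.7 and 20.8 in testis and 76.9 and 75.2 in muscle. Another pair had 2.97 and 2.07 in testis and 33.8 and 33.6 in muscle. The widest pair was that of DLAgn_00048230 with the gene before it, which had 38.2 in testis and 140 in muscle and a log2 ratio of -1.88. The pairs were thus of both kinds, with nearly equal values and with values far apart. Reads shared between similar or overlapping genes would affect such pairs, and this was not tested. DLAgn_00126010 had no such partner, since the identifier before it had no value in either table and the one after it was listed for testis alone, at 5.27.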

How the data were processed

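RNA-seq libraries of testis (5) and muscle (5) were made by the authors from poly-A RNA, aligned with the GEMtools pipeline to the sea bass genome (dicLab v1.0c) and its combined annotation, quantified per gene and scaled by the TMM method. The authors deposited 1 expression signal per gene and tissue, named cpm, with no value per fish. Whether the TMM scaling is part of that signal is not given in the sources. The deposited signal was used unchanged and with no pseudocount, and its steps were not those of whole reads, since 16374 of 16380 values in testis and 12711 of 12715 in muscle were distinct. The authors' table of their own comparison (fold change, statistic, p-values and a mean over libraries) and the bisulfite sequencing tables were not used.

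The log2 ratio was testis over muscle. Percentiles and deciles were taken within all genes of a tissue's table. Every result is a description, since the genes were selected on the values and each tissue has 1 value. The selection of genes was tested on simulated data with known answers. The planted genes lay far below the rest, so this checks the sorting and not the choice of genes near the limit. All simulated muscle values lay above the muscle minimum, and no planted gene was among the top genes left out. Those bounds were therefore not checked. The members, the measures and the alternatives were chosen with earlier results of these data known. Named genes were the 2 lowest ratios. The extreme genes and pairs without identifiers were chosen after their values were seen, as were the distances of 3, 5 and 10 steps. Alternatives changed the muscle minimum, the number of top genes left out, the pseudocount, a testis minimum, the ordering by ranks and the scaling. The computing used pandas 2.3.3, numpy 2.4.6 and scipy 1.17.1 under Python 3.11.15, with matplotlib 3.10.9 for the plots.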

Additional observations from a re-analysis of the deposited data

How the results depend on the processing

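No paired analysis was possible because the tables hold 1 value per gene and tissue, so leaving out each fish in turn was not run either. Of the 200 genes, 120 stayed on the list with no top genes left out, and between 158 and 196 under the other alternatives. Alternatives that only removed eligible genes kept by construction each of the 200 that was still eligible. These were the muscle minimum of 20, the testis minimum and 200 top genes left out. The median log2 ratio moved to -4.81 with no top genes left out, -3.49 with 50 and -2.69 with 200. It was -2.41 with each value divided by the sum of its table and -5.63 when centred on the median of all shared genes. The median muscle value and percentile moved to 241 and 97.9 with no top genes left out, 100.3 and 95.8 with 50 left out, 94.5 and 95.5 with a muscle minimum of 20, and 40.9 and 90.3 when ordered by the difference of percentile ranks. The median testis value and percentile moved to 5.14 and 21.7 with a muscle minimum of 5, and to 10.9 and 33.6 with a minimum of 20. The median log2 ratio of identifier neighbours was 2.51 with neighbours up to 2 steps away. In each of these the moved value lay outside the 95% interval of the median over genes. The other values stayed within it. Every alternative list was still taken from the low end of testis against muscle, so its direction was fixed by the selection. In all, 85 genes were on the list under every alternative to its selection.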
